A study of Gossypium hirsutum with 6 samples.

Results

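The transcriptome of cotton ovules cultured without putrescine was described from the 3 water control samples (CK) among the 6 RNA-seq samples of the series, over all 100562 listed genes. The samples were chosen by their label, water, and not by any measured value. The ovules were wild type *G. hirsutum* cv. ZM24, taken from bolls at 0 days post anthesis (DPA) and kept in darkness for 2 d, with water where the other 3 samples had putrescine. Those other samples were not used. Per the study's methods the collected ovules were divided at random into replicates, so the SD (n = 3 throughout) measures the spread between such portions, which may be mostly technical. In such bulk samples fewer cells of a type and less RNA per cell cannot be told apart.

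Cotton fibers are single cells that grow out of the outer epidermis of the ovule around the day of flowering. They extend by loosening and adding to a thin primary wall while turgor is kept high, and the outer surface of the cell is covered by wall proteins, lipids and a cuticle. Upland cotton is an allotetraploid, so that most genes are present as a copy on an A chromosome and a copy on the matching D chromosome. The other cells of the young ovule divide, form the seed coat and store tannin precursors made by the flavonoid pathway.

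The level of a gene was measured as FPKM, the number of fragments of a gene divided by its length and by the size of the library, which allows genes of different length to be compared. The 3 samples held 19131678, 19463059 and 19160318 counts. A gene of 1 kb with 3 counts, taken as the smallest number that can be told from 0, would have 0.154 FPKM. A gene was taken as expressed at a mean of at least 1 FPKM, which 44883 genes reached, or 44.6% of those listed. Another 35733 genes had no count in any sample. The median gene was at 0.451 FPKM among all genes and at 5.73 FPKM among the expressed ones. There were 13483 genes at 10 FPKM or more and 578 at 100 or more.

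Protein-coding genes carried nearly all of the signal. Of 67585 of them 38733 were expressed, and they held 93.2% ± 0.025 of the summed FPKM. Long non-coding RNAs numbered 10581 with 3456 expressed and held 3.70% ± 0.020. Loci of the deposited tables without a gene name from the reference numbered 1109, of which 880 were expressed, with 1.05% ± 0.0033. Small nucleolar RNAs were listed 10996 times and expressed in 146 cases, in libraries that were selected for poly(A) RNA. The plastid genome held 0.0062% ± 0.00097 of the summed FPKM, with 6 of 128 genes expressed, and the mitochondrial genome 0.015% ± 0.0017, with 22 of 68.

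The 3 samples differed little. Across expressed genes the coefficient of variation (CV) had a median of 7.26%, and it was 4.23% at 10 FPKM or more and 1.91% at 100 or more. The variance between samples was on average 1.85 times the counting noise expected from the number of reads. On the log2(FPKM + 1) scale Pearson's r across the expressed genes was 0.990 for each pair of samples, which is a description across genes and not over independent samples. The genes that departed most from counting noise were a few with a higher value in 1 sample. *LOC107915791* on D10 and *LOC107939271* on A10, both described as RNA-directed DNA methylation 3, a protein of transcriptional silencing, had 26.7, 25.7 and 37.7 FPKM and 31.2, 29.5 and 42.5 FPKM in CK1, CK2 and CK3. *LOC107939333* on D11, a heavy metal-associated isoprenylated protein, had 40.4, 35.1 and 56.6 FPKM, and *LOC107887701* on A11 with a similar name had 21.0, 18.8 and 32.4 FPKM. CK3 was thus the highest in all 4 of these genes, while histone H3.3 *LOC107950429* on D03 was lowest in CK1, at 396 FPKM against 471 and 485.

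Expression was concentrated in few genes. The highest gene held 0.612% ± 0.0087 of the summed FPKM, the 10 highest 3.35% ± 0.0047 and the 100 highest 11.3% ± 0.036. As few as 3787 genes made up 50% of the sum. The 30 highest genes, 12 on A and 18 on D chromosomes, ran from 3647 to 681 FPKM and held 6.34% ± 0.016, and the gene ranked next had 663 FPKM. Each of the 30 had at least 8286 counts in every sample, and their CV ranged between 0.137% and 5.60%. Between neighbours in this order, 17 of 29 steps overlapped between samples, so that many adjacent ranks do not differ beyond the spread.

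Genes for non-specific lipid transfer proteins (LTPs), small secreted proteins that bind lipids and are known from the cuticle and the plant surface, were the most prominent group at the top. *LOC107928594*, described as non-specific lipid-transfer protein 3 (Gossypium_hirsutum_v2.1, chromosome A09, 82102479 to 82103258, plus strand), had 3631, 3696 and 3615 FPKM. It stood above every other gene in every sample. *LOC107896814* (A10, 87216740 to 87217596, plus strand) followed at 2360, 2395 and 2409 FPKM. Its neighbour *LOC107896815* (A10, 87232122 to 87232882, plus strand) had 1572, 1568 and 1571 FPKM. On the D chromosomes *LOC121221012* on D09 averaged 1397 ± 10.6 FPKM, *LOC107914539* on D10 1386 ± 12.6 FPKM and *LOC107914538* on D10 999 ± 5.0 FPKM. LTPs were thus 6 of the 30 highest genes.

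Alcohol dehydrogenase class-P, the enzyme that turns acetaldehyde into ethanol in fermentation, was represented by a gene on each subgenome. *LOC107939013* (A01, 113103164 to 113105395, minus strand) had 2254, 2205 and 2302 FPKM, and *LOC107922343* (D01, 59894077 to 59896343, plus strand) had 1816, 1843 and 1879 FPKM. The A gene was above the D gene in every sample. Of the 9 genes with this name, 6 were expressed and they summed to 4296 ± 79 FPKM. Pyruvate decarboxylase, which makes the acetaldehyde, summed to only 58.2 ± 0.72 FPKM over 8 genes, with *LOC107958418* on A05 highest at 24.9 ± 0.65 FPKM. Lactate dehydrogenase, of the other fermentation branch, summed to 42.8 ± 1.5 FPKM over 6 genes. Non-symbiotic hemoglobins, oxygen-binding proteins that hypoxia induces in other plants, summed to 228 ± 9.2 FPKM over 4 genes, of which *LOC107898705* on D04 had 160, 164 and 148 FPKM. These 4 lists were drawn up after the highest genes had been seen.

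Wall proteins formed the next group among the highest genes. *LOC107936247*, a repetitive proline-rich cell wall protein (D02, 5744269 to 5745202, minus strand), had 1763, 1766 and 1777 FPKM, and *LOC107936249* of similar name (A02, 5049384 to 5050574, minus strand) had 796, 807 and 765 FPKM. Such proteins are built of short repeats and can be cross-linked into the wall. A locus annotated as a pseudogene without a description, *LOC107940532* (A02, 5166262 to 5167119, minus strand), was the fourth highest of all at 1947, 1969 and 1958 FPKM, so that the annotation alone does not say what this transcript encodes. The early nodulin-75-like genes *LOC107915478* on D10 and *LOC121207986* on A10 averaged 1432 ± 3.0 and 1101 ± 20 FPKM. The glycine-rich wall protein *LOC107955730* on D07 had 680, 720 and 760 FPKM, the largest CV of the 30 genes, 5.60%.

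The remaining genes at the top had various functions. Peroxidase 42, a secreted class III peroxidase, was at 1532, 1518 and 1510 FPKM for *LOC107958269* on A05 and at 721 ± 13 FPKM for *LOC107905931* on D05. The fruit protein pKIWI501 genes, named after a kiwifruit transcript, averaged 1557 ± 34 FPKM for *LOC107955038* on D07 and 962 ± 20 FPKM for *LOC107955714* on A07. The dehydroascorbate reductase DHAR2, which regenerates ascorbate, averaged 1080 ± 13 FPKM for *LOC107925966* on D04. Metallothionein-like protein 2, a metal-binding peptide, averaged 977 ± 29 FPKM for *LOC107899309* on D04 and 816 ± 11 FPKM for *LOC121202821* on A04. MLP-like protein 43, of the Bet v 1 fold, averaged 954 ± 14 FPKM for *LOC121228143* on A01. Metallothionein *LOC107899309*, the A07 pKIWI501 gene and MLP-like protein 43 overlapped between samples and cannot be ordered. The ethylene-forming enzyme ACC oxidase was at 683, 684 and 686 FPKM for *LOC107905899* on D05, and the pathogenesis-related protein PR-4A-like *LOC107920491* on D13 averaged 681 ± 13 FPKM. A locus on D05 without a gene name from the reference had 760, 763 and 766 FPKM and carries no description.

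**Figure D1:**
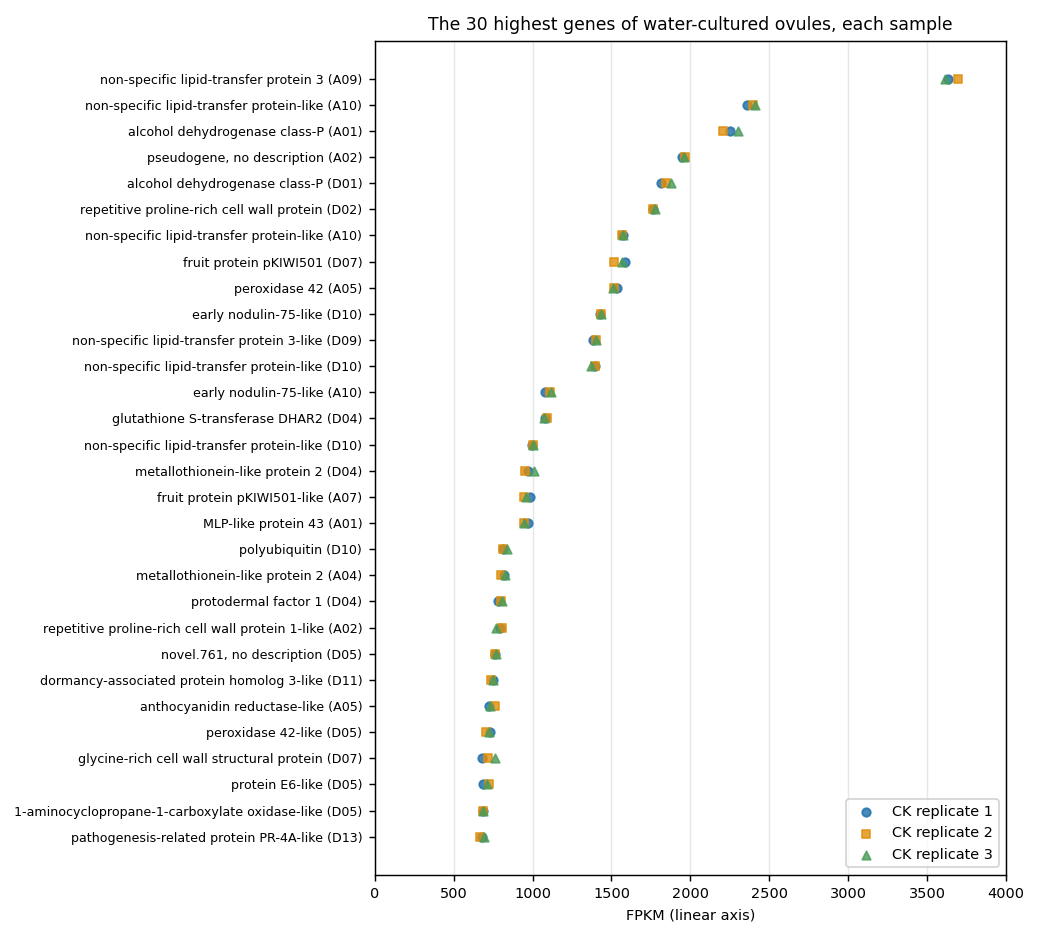
The 30 genes of highest mean FPKM in water-cultured ovules. Each row is a gene, named by its description and chromosome, the x axis is FPKM on a linear scale, and the symbols are the 3 CK samples. The symbols of a gene lie close together, and the LTP on A09 at 3615 to 3696 FPKM stands clear of all others.

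Whether the samples carried the transcripts of ovules was checked with lists of marker genes. Of 21 ovule and integument genes 14 were expressed (66.7%), with a sum of 588, 584 and 578 FPKM. Among protein-coding genes as a whole the share was 57.3%, so the count alone says little. AGL11, the MADS-box protein that specifies ovule identity in *Arabidopsis*, had 4 genes between 77.2 and 119.8 FPKM (*LOC107904906*, *LOC107959522*, *LOC107914052* and *LOC107957499*). The carpel and ovule factor AGAMOUS averaged 93.1 ± 3.2 FPKM for *LOC107925198* on A10. BEL1, needed for integument identity in *Arabidopsis*, was lower at 13.0 FPKM for *LOC107947047* on D12 and 12.5 FPKM for *LOC107949025* on A12, and ANT, a growth factor of integuments there, reached 11.7 FPKM for *LOC107930619* on A06. Not every marker was present. YABBY 4, the relative of the outer integument gene INNER NO OUTER of *Arabidopsis*, was listed at 0 for both *LOC107917500* on A01 and *LOC107921581* on D01, where 3 counts in a library would give 0.148 and 0.0897 FPKM. SPOROCYTELESS, which acts when the megaspore mother cell forms, was at 0 for *LOC107943875* on A01 and at 0.198 ± 0.11 FPKM for *LOC107917595* on D01.

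Markers of fibers and the epidermis were expressed in the same proportion, 28 of 42 (66.7%, against 57.3% of protein-coding genes). Their median was 4.99 FPKM, against 1.96 FPKM for protein-coding genes and 4.23 FPKM for the ovule list. They summed to 3106, 3178 and 3170 FPKM, 47.7% of it from 2 genes. Protodermal factor 1, a wall protein of the epidermis, had 782, 801 and 805 FPKM for *LOC107959715* on D04 and 450.0 FPKM for *LOC107959669* on A05. E6, a protein long known from cotton fibers, had 683, 725 and 712 FPKM for *LOC107905808* on D05 and 543 ± 8.7 FPKM for *LOC107913945* on A05. The regulators of epidermal cells on the same list were far lower, with GLABRA 2 at 25.8 FPKM for *LOC107902766* on D05 and 19.4 FPKM for *LOC107917909* on A05, and MYB106 at 21.1 FPKM for *LOC107927078* on A03.

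Lists for other cell types differed. The seed coat flavonoid list had 20 of 29 genes expressed, a median of 8.23 FPKM and a sum of 1993 ± 17 FPKM, led by an anthocyanidin reductase that is described with its pathway. Of 58 pollen and anther genes 6 were expressed and 33 had no count, with a sum of 35.0 to 36.7 FPKM, and the highest, *LOC107898955* on D04, had 12.9 ± 0.45 FPKM. Of 49 seed storage and oil body genes 8 were expressed and 29 had no count, with a sum of 101 to 113 FPKM, led by a vicilin-like gene, *LOC107887882* on A03, at 39.4 ± 1.9 FPKM. Green tissue genes summed to 192 to 195 FPKM over 57 genes, 31 of them expressed (54.4%) with a median of 1.49 FPKM. This compares with 57.3% and 1.96 FPKM for protein-coding genes, and with 44.6% and 0.451 FPKM for all genes. The chlorophyll a-b binding protein CP29.1 had 24.6 ± 0.95 FPKM for *LOC107891546* on D01. Delta-cadinene synthase, the first step of gossypol synthesis and a marker of pigment glands, had 9 of 34 genes expressed, with 92.3 ± 0.45 FPKM for *LOC107920688* on A04. The part of each of these cell types in the samples was not tested.

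The genes were next grouped by description into 31 classes, which together covered 3840 genes and 19.8% ± 0.015 of the summed FPKM. Only 2 classes overlapped the next lower class in summed FPKM between samples. For comparison, 44.6% of all genes were expressed and the median gene was at 0.451 FPKM. All genes include many non-coding ones and pseudogenes that are seldom expressed. Among protein-coding genes alone the values were 57.3% and 1.96 FPKM.

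Genes of protein synthesis and turnover were broadly expressed, apart from heat shock proteins. Cytosolic ribosomal proteins summed to 33948, 33871 and 34195 FPKM, or 5.71% ± 0.013 of the total, the largest share of the 31 classes. It came from many genes of moderate level, since 716 of 780 were expressed with a median of 38.5 FPKM, and the highest, *LOC107936547* on A02 for protein L8-3 of the 60S subunit, had 211 ± 1.6 FPKM and 0.619% of the class. Proteasome subunits showed the same evenness, with 157 of 170 genes expressed, a median of 20.4 FPKM and no gene above the 76.9 ± 4.1 FPKM of *LOC107888373* on D13. Ubiquitin and polyubiquitin, the tag that marks proteins for the proteasome, held 0.714% ± 0.0077, and *LOC107935373* on D10 alone had 813, 815 and 835 FPKM. Ubiquitin-conjugating enzymes followed with 0.572% ± 0.0032 from 111 of 130 genes. Elongation factors 1-alpha and 2 had 27 of 28 genes expressed and heat shock proteins 65 of 130, and their sums of 2303 ± 11 and 2291 ± 25 FPKM overlapped. The heat shock proteins were thus at 50% with a median of 1.07 FPKM, below the 57.3% and 1.96 FPKM of protein-coding genes. The highest heat shock gene was the constitutive cognate protein *LOC107898826* on A11 at 412 ± 5.6 FPKM.

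Genes of dividing cells were well represented. Histones summed to 7954, 7954 and 8233 FPKM, the third largest share at 1.35% ± 0.023, with 124 of 149 genes expressed at a median of 30.1 FPKM. CK3 was the highest of the samples in this class. By raw counts it held 0.756% and had rank 5. The highest member was H3.3, a variant deposited outside of replication, at 451 ± 48 FPKM, followed by H2B-like *LOC107950275* on D03 at 289 ± 5.5 FPKM. Cyclins and cyclin-dependent kinases, which drive the cell cycle, had 116 of 168 genes expressed and a sum of 1100 ± 2.9 FPKM, with cyclin-B1-2-like *LOC121220227* on D08 at 56.6 ± 1.3 FPKM and cyclin-B1-2 *LOC107949940* on A08 at 51.8 ± 1.6 FPKM. B-type cyclins act at entry into mitosis.

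Among cytoskeletal genes, tubulins summed to 3688, 3681 and 3698 FPKM from 57 of 78 genes. The alpha-4 chain led with 359 ± 3.8 FPKM for *LOC121222068* on A03 and 321 ± 2.3 FPKM for *LOC107905189* on D05. Actins and profilins were lower as a class, with 1658 ± 14 FPKM from 44 of 60 genes, and actin-7 *LOC107913713* on D11 had 157 ± 1.3 FPKM.

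Cell wall classes differed in how their signal was spread over genes. Proline-rich wall proteins summed to 6555 ± 24 FPKM, 27.0% of it from *LOC107936247* alone, while the median of the 117 members was 0.158 FPKM and 54 were expressed. Expansins, which loosen the wall, summed to 1401 ± 10 FPKM. Both leading genes were described as expansin-A4-like, with 328 ± 10 FPKM for *LOC107896748* on A10 and 319 ± 1.6 FPKM for *LOC107914543* on D10, which overlapped between samples and together made up 46.2% of the class. Xyloglucan endotransglucosylases, which cut and rejoin hemicellulose, had 31 of 72 genes expressed and 829 ± 5.0 FPKM. Pectin enzymes were the least often expressed of the wall classes, with 154 of 532 genes and 245 without a count, and they were led by the pectinesterase inhibitor 3-like gene *LOC107907085* on D05 at 193 ± 4.1 FPKM. Arabinogalactan proteins had 71 of 144 genes expressed, the highest being fasciclin-like protein 9 *LOC107946184* on A12 at 141 ± 0.29 FPKM. BURP domain proteins summed to 503 ± 5.8 FPKM, with RD22 *LOC107906941* on D05 at 192 ± 3.7 FPKM and BNM2A *LOC107915145* on D10 at 175 ± 1.9 FPKM making up 72.9%. The cellulose synthases had 22 of 33 genes expressed and a sum of 414 ± 1.9 FPKM. These are long genes, and their share was 0.0695% of the summed FPKM but 0.166% of raw counts. Their highest members were subunit 3 *LOC107938343* on A08 at 54.3 ± 2.0 FPKM and subunit 5 *LOC107914099* on D05 at 52.9 ± 1.1 FPKM, both of the kinds that work in primary walls in *Arabidopsis*.

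The lipid transfer proteins held 2.15% ± 0.017 of the total, with sums of 12735, 12869 and 12749 FPKM. Their highest member gave 28.5% of the class and both leading members together 47.2%, whereas 62 of 146 were expressed and the median was 0.230 FPKM. By raw counts, which are not divided by length, the class held 0.998%, below the flavonoid enzymes with 1.03%, while the ribosomal proteins were still first with 3.09%. The A genes summed to 8185 FPKM and the D genes to 4599 FPKM. By contrast, 3-ketoacyl-CoA synthases, which start each round of very long chain fatty acid elongation, summed to 676 ± 2.7 FPKM with 36 of 52 genes expressed. They were led by *LOC107893385* on A13 at 77.9 ± 0.58 FPKM.

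Aquaporins were the largest of the transport and turgor classes, with 0.580% of the summed FPKM and 0.396% of raw counts. These water channels summed to 3430, 3456 and 3483 FPKM from 61 of 105 genes, and the plasma membrane types PIP2-7-like *LOC107922244* on D01 at 563 ± 2.9 FPKM and PIP2-8 *LOC107947167* on A01 at 410 ± 3.4 FPKM were the highest. Vacuolar proton ATPase subunits, which energise the vacuole, were evenly expressed in 73 of 80 genes with 1566 ± 11 FPKM. Plasma membrane proton pumps summed to 468 ± 5.2 FPKM from 14 of 34 genes (0.0786% of the summed FPKM but 0.165% of raw counts), with ATPase 11 *LOC107886121* on A03 at 68.5 ± 3.3 FPKM. Glycolytic enzymes had 80 of 99 genes expressed and a sum of 3581 ± 7.4 FPKM, led by cytosolic glyceraldehyde-3-phosphate dehydrogenase *LOC107957019* on A05 at 428 ± 3.2 FPKM. Sucrose synthases and invertases, which split the imported sugar, summed to 1218 ± 5.9 FPKM, of which the sucrose synthase *LOC107907080* on D05 gave 291 ± 3.2 FPKM. Their share was 0.204% of the summed FPKM but 0.349% of raw counts.

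Genes for photosynthesis proteins held a small share of the summed FPKM, and the part of them that was expressed was near that of protein-coding genes as a whole. They summed to 642 ± 7.4 FPKM, or 0.108% ± 0.00094. Of 155 genes 81 were expressed (52.3%, against 57.3% of protein-coding genes and 44.6% of all genes). Their median was 1.45 FPKM, against 1.96 FPKM for protein-coding genes. No gene was above the 40.4 ± 1.9 FPKM of a photosystem II 10 kDa polypeptide, *LOC107948490* on A04. Protochlorophyllide reductase, which needs light to make chlorophyll, summed to 32.6 ± 0.36 FPKM over 6 genes.

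Among redox classes, the signal of the class III peroxidases rested on few genes. They summed to 3150 ± 26 FPKM, but peroxidase 42 and its D05 relative made up 71.1% and 66 of 187 genes were expressed. The 12 metallothionein genes summed to 3349 ± 52 FPKM and had the highest median of the 31 classes, 106 FPKM. They held 0.562% ± 0.0072 of the summed FPKM but 0.264% of raw counts. Catalase, superoxide dismutase and ascorbate peroxidase, the main enzymes that remove superoxide and hydrogen peroxide, summed to 1535 ± 3.1 FPKM from 40 of 47 genes, with the ascorbate peroxidase *LOC107959060* on A05 at 194 ± 2.1 FPKM.

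**Figure D2:**
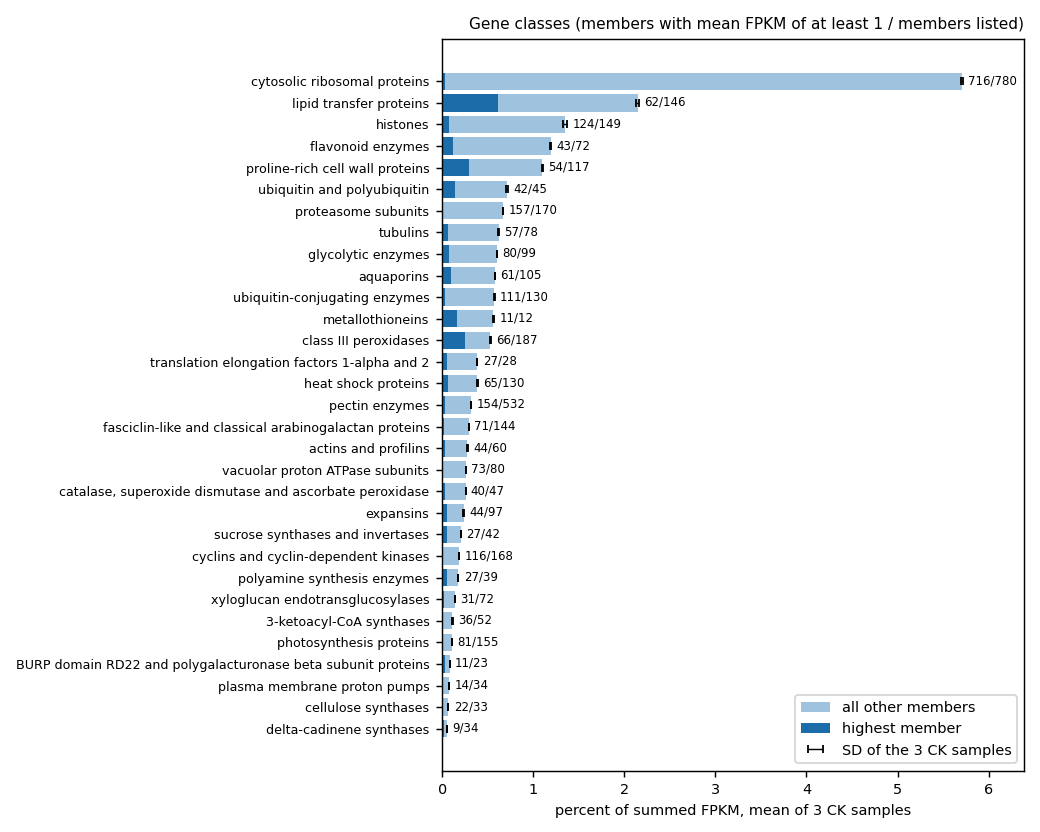
Share of summed FPKM held by 31 gene classes in water-cultured ovules. Bars give the mean of 3 CK samples in percent, the dark segment is the highest member, error bars are the SD, and the numbers give expressed over listed genes. Ribosomal proteins (5.71%) are spread over 716 genes, whereas the highest gene alone gives 28.5% of LTPs and 48.3% of class III peroxidases.

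The flavonoid pathway was expressed at nearly every step. It makes flavonols, anthocyanins and the flavan-3-ols from which the tannins of the seed coat are built. The class held 1.19% ± 0.0051 of the summed FPKM, with sums of 7081, 7104 and 7081 FPKM. By step, chalcone synthase, the entry enzyme, summed to 1072 ± 5.3 FPKM, chalcone isomerase to 707 ± 11 FPKM and flavanone 3-hydroxylase to 1318 ± 13 FPKM. All 3 early steps were therefore within a factor of 2 of each other. The hydroxylases of the B ring were unequal, with the 3',5' type at 866 ± 13 FPKM from 3 genes and the 3' type at 117 ± 1.1 FPKM from 10 genes. Later, dihydroflavonol reductase summed to 747 ± 7.3 FPKM and leucoanthocyanidin dioxygenase to 519 ± 12 FPKM, all of it from *LOC107930062* on D08, since the A12 gene of the same name, *LOC107936429*, was listed at 0. Leucoanthocyanidin reductase and anthocyanidin reductase, which both lead to flavan-3-ols, summed to 645 ± 4.7 and 1090 ± 16 FPKM. The leading anthocyanidin reductase gene, *LOC107938221* on A05, had 721, 762 and 729 FPKM. The branch to flavonols was the exception, as flavonol synthase summed to 7.11, 6.47 and 6.78 FPKM over 8 genes. The lists by step were drawn up after values had been seen, and gene names rest on sequence similarity in the annotation.

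The polyamine enzymes were also described by step, because putrescine is the compound that the series tested. It is made from arginine, by arginine decarboxylase and the following agmatine steps, or from ornithine. Arginine decarboxylase summed to 215, 211 and 220 FPKM over 8 genes, of which *LOC107893794* on A13 had 104 ± 2.2 FPKM and *LOC107919776* on D13 80.8 ± 1.5 FPKM. Ornithine decarboxylase summed to 4.08, 5.30 and 4.47 FPKM over 3 genes, and *LOC107888839* on A11 gave nearly all of it. The agmatine steps were at 48.0 ± 0.70 FPKM. S-adenosylmethionine decarboxylase, which supplies the aminopropyl groups of the larger polyamines, was the highest step at 665 ± 4.1 FPKM, led by *LOC107887408* on D02 at 316 ± 1.6 FPKM, and spermidine and spermine synthases summed to 119 ± 1.5 FPKM.

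**Figure D3:**
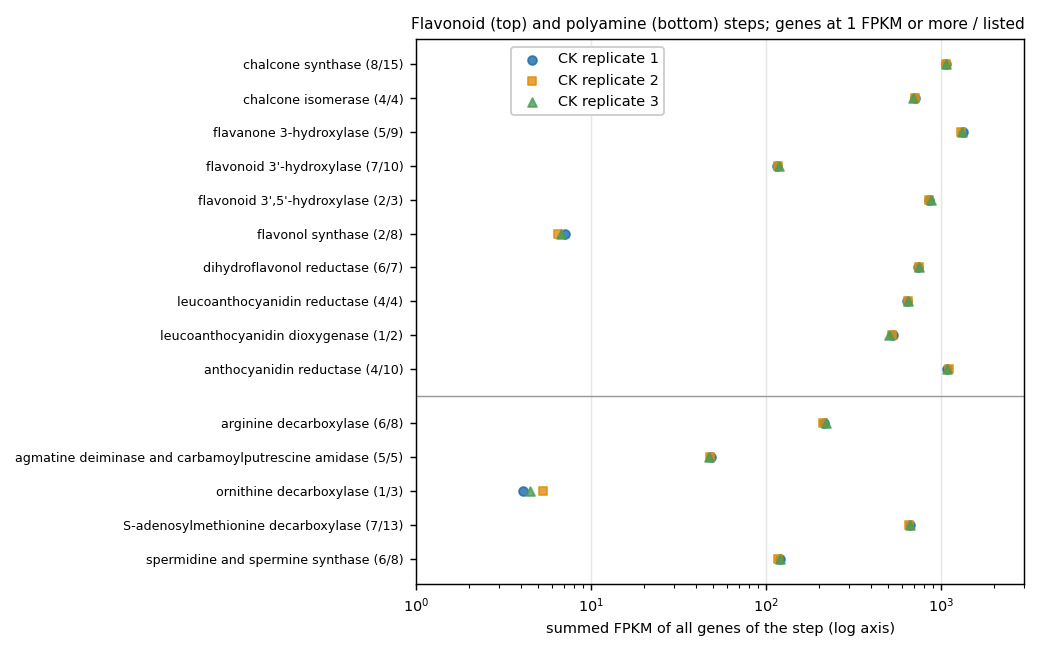
Summed FPKM of the genes of each flavonoid step (upper rows) and polyamine step (lower rows) in the 3 CK samples, on a log axis. Numbers beside a step give expressed over listed genes. Flavonol synthase (6.47 to 7.11 FPKM) and ornithine decarboxylase (4.08 to 5.30 FPKM) lie far to the left of the other steps.

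Ethylene synthesis showed a similar inequality between its steps. ACC oxidase, the last enzyme, summed to 1423, 1432 and 1433 FPKM over 26 genes, whereas ACC synthase, which makes its substrate, summed to 57.8, 57.2 and 55.6 FPKM over 28 genes, 6 of them expressed. Genes for proteins of defence type were expressed less often than protein-coding genes as a whole (57.3%, median 1.96 FPKM). They were near the values over all listed genes (44.6%, median 0.451 FPKM). Bet v 1 and MLP genes had 22 of 49 expressed (44.9%), a median of 0.536 FPKM and a sum of 3211 ± 24 FPKM, 48.0% of it from the leading pair. Chitinases and hevamines had 37 of 80 expressed (46.2%), a median of 0.516 FPKM and a sum of 1698 ± 14 FPKM, of which hevamine-A-like *LOC121211190* on A12 had 663 ± 12 FPKM.

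The files hold a column of families for each gene. It contains 654 protein domain families over 30730 genes, most of which are not transcription factors, and its largest entries by summed FPKM were protein kinases (10045 ± 41 FPKM over 2271 genes), the RNA recognition motif (9102 ± 155 FPKM over 604 genes) and, overlapping between samples, histones (5536 ± 88 FPKM) and cytochrome P450 (5520 ± 45 FPKM). The highest kinase gene, the receptor-like kinase BAM1 *LOC107935253* on A02, had 129 ± 1.7 FPKM. The RNA recognition motif was led by the glycine-rich RNA-binding protein GRP1A, at 646, 621 and 703 FPKM for *LOC107952135* on A13 and 619, 608 and 670 FPKM for *LOC107942897* on D13, with CK3 highest in both. The P450 genes were led by the flavonoid 3',5'-hydroxylase *LOC107954320* on D07 at 547 ± 6.2 FPKM.

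From this column 31 domains of DNA-binding protein families, dimerisation and accessory domains among them, were kept and joined into 23 families with 3788 genes. Transcription factors and other DNA-binding proteins switch genes on and off and are usually made in small amounts. Of these genes 1806 were expressed (47.7%, against 57.3% of protein-coding genes and 44.6% of all genes). There were 501 at 10 FPKM or more and 24 at 100 or more. The median of the DNA-binding genes was 0.779 FPKM, against 1.96 FPKM for protein-coding genes. Together they held 3.51% ± 0.0093 of the summed FPKM. The order of families given here is by summed FPKM and depends on the division by gene length. By raw counts MYB was still first, but B3 rose from rank 5 to 2 and HMG box fell from rank 6 to 11.

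MYB was the highest family by sum, with 2741, 2730 and 2732 FPKM from 328 expressed of 681 genes. Its highest member, *LOC107934092* on A08 for KUA1, a factor of cell expansion in *Arabidopsis* leaves, had 115 ± 3.9 FPKM and 4.21% of the family, so the sum rested on many genes. Homeodomain genes summed to 2227 ± 11 FPKM, and here few genes counted for more. ATHB-40, of the homeobox-leucine zipper type, had 277, 284 and 287 FPKM for *LOC107896489* on A11, the highest member. *LOC107934293* came next in the family at 151 FPKM. ATHB-40 also had 144 ± 3.6 FPKM for *LOC107909378* on A02 and 137 ± 6.2 FPKM for *LOC107957425* on D11. AP2/ERF genes summed to 2064 ± 11 FPKM with 162 of 503 expressed. The 4 highest were described as RAP2-3 and RAP2-12, ethylene response factors of the group that senses oxygen in *Arabidopsis*, at 221 ± 2.3 FPKM for *LOC121222257* on D10, 191 ± 2.3 FPKM for *LOC107897456* on A10, 164 ± 4.0 FPKM for *LOC107896651* on A10 and 137 ± 2.3 FPKM for *LOC107913841* on D10.

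MADS-box genes, which specify floral organs and ovules, summed to 1803, 1796 and 1781 FPKM, although only 67 of 238 were expressed and the median was 0.0581 FPKM. MADS1 *LOC107941808* on D10 had 145 ± 3.5 FPKM, MADS4 *LOC107911542* on D04 140.5 ± 0.48 FPKM and AGL11 *LOC107957499* on A05 120 ± 1.2 FPKM. HMG box genes, which encode chromatin proteins more often than regulators of single genes, were the only family with all members expressed, 30 of 30. They had the highest gene of the 23 families, HMGB3-like *LOC121230823* on A01, at 380, 385 and 389 FPKM. B3 genes summed to 1549 ± 3.0 FPKM and NAC genes to 1404 ± 13 FPKM, led by RAV1-like *LOC121208151* on A10 at 135 ± 2.0 FPKM and NAC 92-like *LOC107922741* on A11 at 135 ± 4.3 FPKM.

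WRKY and bHLH genes could not be ordered by summed FPKM, with 1285 ± 18 and 1281 ± 6.0 FPKM. By raw counts WRKY genes held 0.190% and bHLH genes more, 0.249%. Their highest members were WRKY 17 *LOC107933004* on D07 at 48.7, 48.4 and 53.0 FPKM and the jasmonate factor MYC2 *LOC107950166* on A03 at 53.8 ± 0.50 FPKM. The bZIP genes summed to 1163 ± 7.0 FPKM and the GRAS genes to 854 ± 3.9 FPKM, of which the DELLA protein GAI-like *LOC107887343* on A07, a repressor of gibberellin response, gave 114 ± 1.5 FPKM. TCP genes, regulators of growth, summed to 528 ± 7.1 FPKM from 54 of 75 genes. The EIN3 family of ethylene signalling had 13 of 16 genes expressed, the highest being *LOC107906201* on D05 at 70.8 ± 1.1 FPKM. In the zinc finger homeodomain family a mini zinc finger gene, *LOC121221106* on D09, gave 137 ± 3.0 of 400.1 FPKM. The SBP, heat stress factor, GATA, Dof, CAMTA, NF-YA, RWP-RK and E2F families ranged between 380 and 68.9 FPKM. The YABBY family was the exception. None of its 25 genes reached 1 FPKM, 14 had no count in any sample, and the highest, YABBY 2 *LOC107953140* on A07, had 0.305, 0.112 and 0.114 FPKM from 8, 3 and 3 counts.

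**Figure D4:**
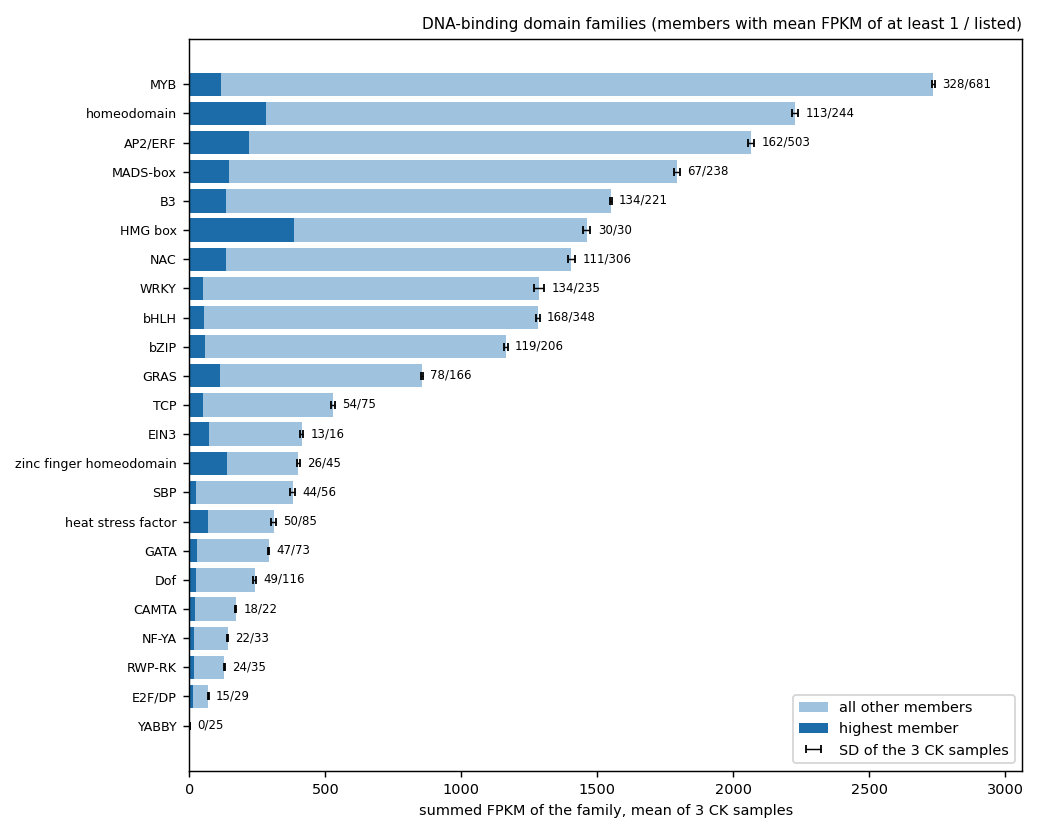
Summed FPKM of 23 DNA-binding domain families in water-cultured ovules. Bars give the mean of 3 CK samples, the dark segment is the highest member, error bars are the SD, and the numbers give expressed over listed genes. MYB leads with 2734 FPKM from 328 genes, HMG box has 30 of 30 genes expressed, and YABBY has 0 of 25.

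The subgenomes were compared within each sample. The A chromosomes list 51925 genes, of which 22561 (43.4%) were expressed, and the D chromosomes 46810, of which 22212 (47.5%) were expressed. Summed FPKM was 298680, 298509 and 300037 on A chromosomes against 295797, 295263 and 296840 on D chromosomes. A over D was 1.01 ± 0.00067 and above 1 in 3 of 3 samples (exact sign-flip permutation test, two-sided p = 0.25, the smallest that 3 samples allow). The direction was not stable, because A over D was 0.998 without the 100 highest genes and 0.996 with raw counts. Chromosomes A05 and D05 held the largest sums, 36148 ± 72 and 33725 ± 60 FPKM, and A04 the smallest of the A chromosomes with 14496 ± 59 FPKM. The sums are not divided by the number of listed genes, which was 5604 on A05, 4942 on D05 and 2752 on A04.

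To compare copies of a gene, pairs were formed of 1 gene on an A chromosome and 1 on the D chromosome of the same number that alone share a description. The rule gave 3303 presumed homeolog pairs, and 2582 with a pair mean of at least 1 FPKM were tested with limma on the log2 ratio of FPKM + 1. Of these, 1796 (69.6%) had an adjusted p under 0.05, with 878 (34%) higher in A and 918 (35.6%) lower in A. Most of the differences were small. The median log2 A over D was -0.01, the median absolute value was 0.34, and 85.9% of pairs lay within 2-fold. Called pairs of at least 2-fold numbered 365 (14.1%), 194 higher in A and 171 lower in A. Across pairs, log2 A over D tended to be lower where the A gene was the longer partner (Spearman correlation with the log2 length ratio -0.19). Among the 1869 pairs with lengths within 10%, called pairs of at least 2-fold were 98 higher and 98 lower in A. Because the replicates are portions of one collection, these tests ask whether the copies differ in this material and not whether they do so between plants.

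The largest differences were near presence against absence. Outer envelope membrane protein 7-like, a small plastid envelope protein, had 104, 89.5 and 105 FPKM on A08 (*LOC107949114*) and was listed at 0 on D08 (*LOC107914536*), at least 341-fold higher in A if 3 counts per library are taken as the limit. Glutathione S-transferase U8-like, a detoxifying enzyme, had 115, 110.0 and 116 FPKM on A09 (*LOC107889738*) and 1.18, 0.738 and 0.829 FPKM on D09 (*LOC107891004*), a log2 A over D of 5.91 ± 0.052 (SE, limma adjusted p = 8.92e-13). RING-H2 finger protein ATL72-like, a presumed ubiquitin ligase, had 22.7, 22.6 and 22.2 FPKM on A10 (*LOC107896558*) and was listed at 0 on D10 (*LOC121222107*), at least 61.0-fold higher in A. In these pairs the A and D copies did not overlap.

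In the other direction, the dormancy-associated protein homolog 3-like gene had 4.52, 5.04 and 6.15 FPKM on A11 (*LOC107961885*) and 746, 738 and 749 FPKM on D11 (*LOC121223371*), where it is among the 30 highest genes. Its log2 A over D was -6.91 ± 0.053 (SE, limma adjusted p = 6.47e-13). Protein P21, a thaumatin-like protein, had 1.02, 0.501 and 0.703 FPKM on A12 (*LOC107936391*) and 105, 106 and 101 FPKM on D12 (*LOC107947008*), with a log2 A over D of -5.92 ± 0.068. The 23 kDa jasmonate-induced protein-like gene had 0.0454, 0.178 and 0.227 FPKM on A10 (*LOC107914657*), from 1 to 5 counts, and 66.2, 65.5 and 68.0 FPKM on D10 (*LOC121222184*). All 6 pairs kept their direction and passed with edgeR, with a test against a 2-fold minimum and without each replicate. They had been picked for the most extreme ratios among called pairs of the same samples. These checks therefore give no independent support. The lengths that the annotation gives the partners differ in some of these pairs, by 888 against 2057 bases for the glutathione S-transferase and 1603 against 417 bases for ATL72-like. Reads shared by near-identical copies can be assigned to either or dropped, and how they were counted is not given in the sources used here.

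**Figure D5:**
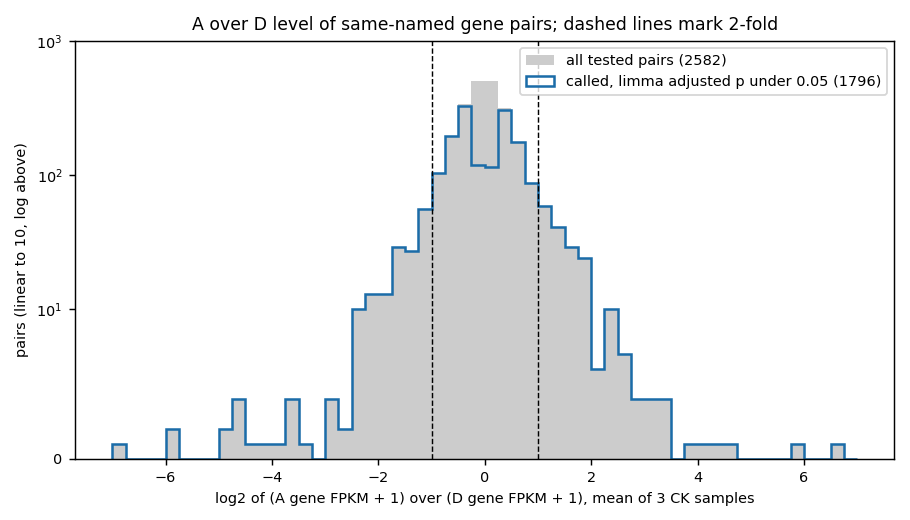
Distribution of log2 A over D, from FPKM + 1, over 2582 presumed homeolog pairs (grey) and over the 1796 with a limma adjusted p under 0.05 (blue line). The y axis counts pairs, linear to 10 and log above, and dashed lines mark 2-fold. The distribution is centred near 0 (median -0.01), and 365 called pairs lie beyond 2-fold.

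Non-coding transcripts reached the level of abundant mRNAs in a few cases. The highest were *LOC107891704* on D09 with 271, 275 and 264 FPKM, *LOC107894327* on A13 with 248, 254 and 238 FPKM, and *LOC107929719* on D11 with 223, 219 and 214 FPKM, none with a description beyond its locus name. The first overlaps *LOC107891705*, a gene on the opposite strand at 0.139 FPKM, and a strand-specific count is not given in the sources used here.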

How the data were processed

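RNA-seq was performed by the authors on poly(A)-selected RNA. The submitters' processing notes name CASAVA and HISAT2 2.0.5, and the genome was Gossypium_hirsutum_v2.1. The program that counted reads is not given in the sources used here. The authors deposited raw counts per gene and FPKM. The deposited FPKM equal the counts divided by gene length and by a library size of 100.9 to 101.5% of the total counts. Columns were assigned to the 3 CK samples by name, and the 3 putrescine columns were not used. Chromosome names were taken from the RefSeq table by gene ID, which matched 99451 of the 100562 IDs.

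Means, SD, CV and shares were computed with Python 3.11.15, numpy 2.4.6 and pandas 2.3.3. The limits set by 3 counts cover counting error only. A ± gives the SD of the 3 samples, or the SE where it follows a log2 ratio. Pairs were tested in R 4.3.3 with limma 3.58.1 (intercept only, trended variance, pseudocount 1, Benjamini-Hochberg over all tested pairs, adjusted p under 0.05), with edgeR 4.0.16 on counts as an alternative, and checked on simulated data.

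Genes were named by rule, as the 30 highest, the 2 highest of each class, the 10 highest genes with a domain entry, the highest of the 12 largest entries, the 3 largest and 3 smallest ratios among called pairs of at least 10 FPKM, the 5 genes of largest variance over counting noise at 10 FPKM or more, the 3 highest of each marker list and the 3 highest non-coding genes. All others were chosen after values were seen, including the 31 domains of DNA-binding families and the 27 lists by pathway step or protein. The members and lists were chosen with earlier results of these data known. The patterns of 9 of 31 classes were corrected after the gene descriptions they matched had been seen. Promoter motifs and sequences were not analysed here.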

Additional observations from a re-analysis of the deposited data

How the results depend on the processing

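No paired analysis was possible because no water sample is compared with a putrescine sample here, so that replicate numbers pair no groups. A and D values were paired within each sample in the fits themselves. The number of expressed genes stayed within 1.5 times of 44883 under every alternative, at 49673 with a mean of 0.5 FPKM, 43101 with 1 FPKM in every sample, 49873 with 10 counts in every sample and 44839 to 44862 without a replicate. The share of the 100 highest genes was 8.06% with raw counts, 10.8% without the highest gene and 11.29 to 11.32% without any 1 replicate. With TPM it was 11.3%, but TPM leaves such shares unchanged by construction. The 31 classes held 14.5% of raw counts, 17.3% of FPKM without the highest member of each class and 19.7% with the patterns as first written, a choice added after the data were seen. The DNA-binding families held 3.66% of raw counts and 3.14% of FPKM without the highest member of each, and all entries of the domain column, also added later, held 38.2%. The median CV of 7.26% was 4.23% at a mean of at least 10 FPKM. With counts scaled by their total it was also 7.26%, but this is nearly the same scaling as that of the FPKM. A over D of the subgenome sums turned to 0.996 with raw counts and 0.998 without the 100 highest genes, against 1.01 with all genes and without each replicate. The test with a minimum 2-fold change called 251 pairs instead of 1796, as its construction requires. The count was 1762 with a pseudocount of 0.1, 1973 of 3123 with no filter, 1198 of 1656 at a pair mean of 5 FPKM, 1827 with edgeR, 1239 of 1869 with lengths within 10%, 1787 without division by length (added later) and 1679 to 1694 without a replicate. For single classes, the share moved by more than the SD in 31 of 31 with raw counts and without the highest member. For families it did so in 21 of 23 with raw counts and in 22 of 23 without the highest member. None of the 69 family values moved without a replicate, but this outcome was fixed. Leaving out 1 of 3 samples cannot shift a mean by as much as their SD. The pairs of at least 2-fold were 107 and 95 at a pair mean of 5 FPKM and 98 and 98 with lengths within 10%, higher and lower in A. Promoter motif shares, also planned, were not analysed here. At this depth a gene of 1 kb below 0.154 FPKM cannot be told from 0.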
